A study of Mus musculus with 2 samples.

Results

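Dystroglycan, its ligands and a part of the machinery around it were followed across the cell classes of mouse eye tissue. The members were the 7 genes Dag1, Agrn, Lama1, Lamb2, Egflam, Pomgnt1 and Dmd, matched by symbol and found as 7 of the 32285 features of the expression matrix. The data came from SeekSpace, an assay that reads the RNA of single nuclei together with barcodes that place them on a capture chip. The library, T1, was made from 1 fresh-frozen section of 10 µm from 1 eye of a mouse kept on the C57BL/6J background, with no treatment. The study set heterozygous carriers of a missense Prph2 allele against wild-type controls matched for age and sex, with spatial data taken at 6 months, but its design text assigns T1 to neither genotype. The expression and the spatial-barcode library of T1 therefore form no groups, and all values below compare cell classes within 1 section, with no replicates and no p-value.

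Dystroglycan, encoded by Dag1, is made as a single protein that is cut into an extracellular alpha subunit and a membrane-spanning beta subunit. Long sugar chains on the alpha subunit bind the laminin G-like domains of matrix proteins: agrin (Agrn), the laminin alpha1 chain (Lama1) in the laminin trimers that also hold beta chains such as Lamb2, and pikachurin (Egflam), which sits at the photoreceptor ribbon synapse. Pomgnt1 encodes a Golgi enzyme that extends O-linked mannose on the alpha subunit, and dystrophin (Dmd) joins the beta subunit to the cytoskeleton. In the retina the complex is known at the end feet of Müller glia on the inner limiting membrane, where it holds water and potassium channels, and at the photoreceptor terminal. Mutations in many of its genes cause muscular dystrophies with eye involvement.

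The members lie on 5 chromosomes of the assembly GRCm38.p6, also called mm10. In RefSeq's annotation Dag1 spans chr9:108204861-108263977 and Lamb2 chr9:108479847-108490530, Agrn chr4:156165290-156197533 and Pomgnt1 chr4:116150498-116159844. Lama1 spans chr17:67697127-67822645, Egflam chr15:7206120-7398744 and Dmd chrX:82814664-85205050. At 2390387 bases Dmd is by far the longest, and 7 other annotated genes overlap it, of which Tsga8 alone was among the features, with 0 UMIs. Agrn and Egflam each overlap 1 annotated gene that is not among the features. Counts per gene are not length-corrected, so levels are compared between classes for 1 gene, never between genes.

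RefSeq's table of start sites held windows for 6 of the 7 members. The windows of 250 bases before a start are shown for Egflam and Dmd, because these 2 members had their highest level in rods, and for Lamb2 as a contrast, with 7 UMIs in rods and 4 in cones. Capitals mark TAATCC, the core that the photoreceptor homeodomain factors OTX2 and CRX are known to bind, or the TATA box TATAAA, each searched on both strands.
Egflam, chr15:7398396-7398645, minus strand: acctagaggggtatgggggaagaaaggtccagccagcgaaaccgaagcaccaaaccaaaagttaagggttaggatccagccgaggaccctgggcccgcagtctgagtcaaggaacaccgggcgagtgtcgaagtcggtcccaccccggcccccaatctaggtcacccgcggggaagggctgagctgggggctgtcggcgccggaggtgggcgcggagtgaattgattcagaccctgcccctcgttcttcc
Dmd, chrX:82948620-82948869, plus strand: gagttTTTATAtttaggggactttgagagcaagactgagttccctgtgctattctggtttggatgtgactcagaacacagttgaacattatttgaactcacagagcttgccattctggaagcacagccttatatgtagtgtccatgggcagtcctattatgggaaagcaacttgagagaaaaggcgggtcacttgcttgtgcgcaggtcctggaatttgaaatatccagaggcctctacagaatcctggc
Dmd, chrX:85048045-85048294, plus strand: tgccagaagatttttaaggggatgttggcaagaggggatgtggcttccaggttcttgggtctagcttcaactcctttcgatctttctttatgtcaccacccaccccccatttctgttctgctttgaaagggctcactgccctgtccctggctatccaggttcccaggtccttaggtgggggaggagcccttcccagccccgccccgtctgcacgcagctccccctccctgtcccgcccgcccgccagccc
Lamb2, chr9:108479612-108479861, plus strand: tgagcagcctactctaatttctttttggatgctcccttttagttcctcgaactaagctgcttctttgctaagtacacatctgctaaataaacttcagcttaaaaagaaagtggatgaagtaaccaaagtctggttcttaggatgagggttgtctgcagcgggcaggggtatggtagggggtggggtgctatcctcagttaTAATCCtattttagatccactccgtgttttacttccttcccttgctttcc
The Egflam window held neither motif. The first Dmd window held TATAAA on the opposite strand (printed as TTTATA) and the second held neither; both lie inside the gene's span, at later start sites. TAATCC was found in the Lamb2 window and, among the members' other windows, in 1 of Agrn. Of 32851 windows of the same length, 6.25% held TAATCC and 12.4% held TATAAA. GC content was 63.2% in the Egflam window, 45.2 and 60% in the Dmd windows and 43.6% in the Lamb2 window, against a median of 52.4% over all windows. A match describes letters in a window and shows no binding. The start behind the Dmd counts of rods is not known here and may lie outside the windows shown.

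The library held 17285 barcodes and 55843593 UMIs (counted molecules), and 16867 nuclei with a median of 1811 UMIs passed the filters. Of 39 clusters, 36 were named from marker genes, which gave 18 classes of at least 50 nuclei, from 54 horizontal cell-like to 5768 rod-like nuclei. Rod-like nuclei were the shallowest, with a median of 1063 UMIs, and horizontal-like nuclei the deepest, with 6926. Among the classes used most, 11 of 12 markers were highest in their own class for rods, 11 of 11 for cones, 12 of 12 for skeletal muscle, 10 of 12 for the retinal pigment epithelium (RPE) and 5 of 12 for Müller glia. Of the other 7 Müller markers, Rlbp1, Sox9, Car14 and Clu were highest in RPE-like, Slc1a3 and Aldh1a7 in adipocyte-like and Vim in lens-like nuclei. Tissue labelled as retina thus also held nuclei with markers of lens, muscle, vessels, fat and connective tissue. No cluster was named astrocyte or ciliary epithelium. The pericyte and smooth muscle-like class was 1 cluster, whose second class by markers was endothelial, at 0.722 of its score. The endothelial marker Ptprb was among its leading genes, and Cldn5, another, was highest in it. Rod marker transcripts were found in every class, from 581 CPM in horizontal-like to 2420 CPM in endothelial-like nuclei for the 12 rod markers summed. The part of such foreign transcripts in each low level was not tested, except where rod markers are given beside it. A level is given as CPM, counts per 1000000 UMIs pooled over the nuclei of a class, with an exact Poisson 95% interval in parentheses. The intervals cover counting error only, since nuclei of 1 section are not replicates. In nuclear RNA, a lower share of all transcripts and fewer nuclei of a subtype in a class cannot be told apart.

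All 7 members were measured, with at least 20 UMIs in their highest class. They did not share a class: Dag1 was highest in myelinating glia-like, Agrn in melanocyte-like, Lama1 in lens-like, Lamb2 in pericyte and smooth muscle-like, Egflam and Dmd in rod-like and Pomgnt1 in cone-like nuclei. The term class-high is used for a gene whose top class, on the lower interval bound, reached 2 times the upper bounds of all the others. Of the 7 members 1 met this, Lama1 in the lens, against 14.1% of the 13894 genes measured for any class and 0.749% for the lens. Lama1 did not meet it with nuclei thinned to 500 UMIs or with a factor of 3 in place of 2, where 0 members did. The share of all genes was not worked out for these settings. With rods and cones merged into photoreceptors, an alternative added after the values were seen, Lama1, Egflam and Dmd met it, against 15.9% of 13874 genes for any class and 2.26% for photoreceptors. The bar plot of levels by class shows the 7 patterns side by side.

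**Figure D1:**
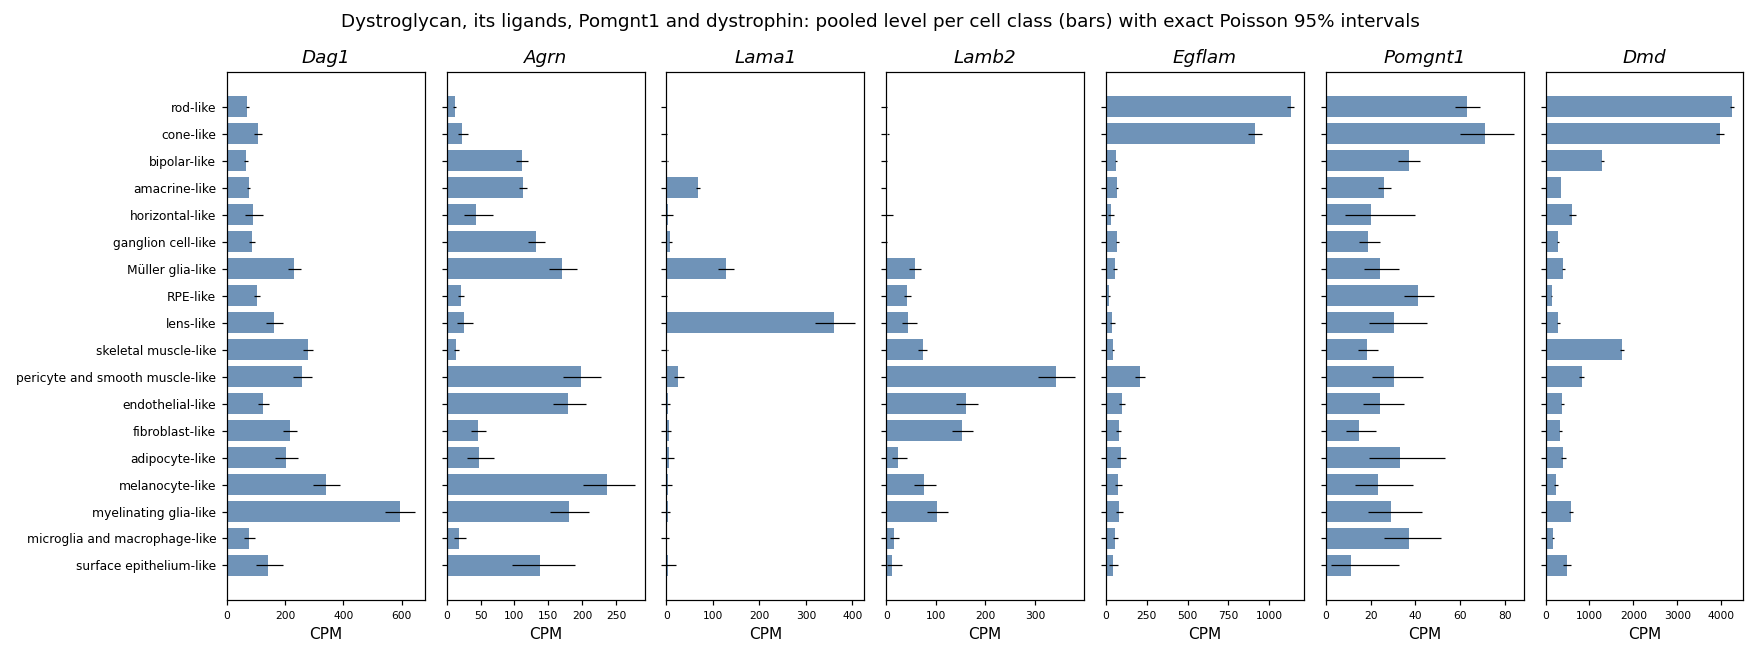
Level of each of the 7 members in the 18 cell classes: the horizontal axis is CPM (counts per 1000000 UMIs, pooled over the nuclei of a class, linear and separately scaled for each gene), bars are pooled levels and black lines are exact Poisson 95% intervals. Dag1 peaks in myelinating glia-like nuclei at 593 CPM, Lama1 in lens-like nuclei at 361 CPM, and Egflam and Dmd in rod- and cone-like nuclei.

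Dag1, the receptor, was found in every class. Its level was 593 CPM in myelinating glia-like nuclei (543 to 647), 340.4 CPM in melanocyte-like nuclei (297 to 389) and 278 CPM in skeletal muscle-like nuclei (261 to 295). Pericyte and smooth muscle-like nuclei had 258 CPM (228 to 292), Müller glia-like nuclei 231 CPM (208 to 255) and fibroblast-like nuclei 215 CPM (192 to 241). The first 2 classes were set apart by their intervals, whereas from muscle through Müller glia to fibroblasts each class overlapped the next. Adipocyte-, lens-, surface epithelium- and endothelial-like nuclei followed, from 202 down to 124 CPM. The lowest levels lay in the retina's neurons, the RPE and microglia and macrophages: 107 CPM in cones (92.5 to 122), 103 CPM in RPE (93.3 to 114), 88.4 CPM in horizontal cells, 85.4 CPM in ganglion cells, 76.5 CPM in microglia and macrophages (59.9 to 96.4), 74.7 CPM in amacrine cells, 69.9 CPM in rods (64.4 to 75.8) and 64.5 CPM in bipolar cells (58.0 to 71.4). A Dag1 UMI was seen in 42.2% of Müller glia-like nuclei (38.1 to 46.4%, Clopper-Pearson), at a median of 2984 UMIs, and in 18.3% of bipolar-like nuclei, at a median of 3174 UMIs. With every nucleus thinned to 500 UMIs, the shares were 10.0% in Müller glia-like and 2.81% in bipolar-like nuclei, and 26.9% in myelinating glia-like nuclei, the highest of all classes.

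The class with the highest Dag1 was not uniform. Its cluster was led by Prx and Pmp22, genes of the Schwann cell myelin sheath, but also by Gfap, an astrocyte filament gene. At a finer clustering resolution, chosen as an alternative, the 260 nuclei split into 176 led by Prx and Pmp22 and 84 led by Gfap and Pax2 that were not named. Dag1 was at 845 CPM in the 176 nuclei (766 to 930) and at 255 CPM in the 84 (205 to 312), so the intervals were far apart. In the same order, Drp2, a dystrophin relative that sits with dystroglycan and periaxin at the Schwann cell membrane, was at 1040.3 and 8.21 CPM. Utrn, the autosomal relative of dystrophin, was at 2689 and 917 CPM, and Dmd at 837 and 229.9 CPM. Agrn differed less between the 176 and the 84 nuclei, at 159 and 208 CPM.

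Agrn encodes a large heparan sulfate proteoglycan known for clustering receptors at the nerve-muscle junction. Its level was 237 CPM in melanocyte-like nuclei (201 to 278), 198 CPM in pericyte and smooth muscle-like nuclei (172 to 228) and 179.8 CPM in myelinating glia-like nuclei (153 to 211). Endothelial-like nuclei had 179.6 CPM (157 to 205) and Müller glia-like nuclei 171 CPM (151 to 192). Among neurons, ganglion cell-like nuclei had 132 CPM (120.2 to 144), amacrine-like nuclei 112 CPM (106 to 118) and bipolar-like nuclei 111 CPM (102 to 119.5). The order held no gap among the first 7 classes, each overlapping the next. Horizontal-like nuclei had less, 42.9 CPM from 17 UMIs (25.01 to 68.7), which overlapped cones. A low group followed: 23.3 CPM in cones (17.0 to 31.2), 20.9 CPM in RPE (16.4 to 26.1), 13.8 CPM in skeletal muscle (10.3 to 18.1) and 11.8 CPM in rods (9.54 to 14.3). Ganglion cell-, amacrine- and bipolar-like nuclei thus lay above photoreceptors and horizontal cells for Agrn, while Dag1 was at most 107 CPM in all of them. Thinned to 500 UMIs, 6.83% of ganglion cell-like, 5.69% of amacrine-like and 5.81% of bipolar-like nuclei had an Agrn UMI, against 0.270% of rod-like nuclei. In lens-like nuclei, 0 Agrn UMIs were counted in cluster 20, led by fibre genes such as Mip and Crygs, and 54.1 CPM was measured in cluster 28, with the epithelial genes Foxe3 and Cdh1.

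Lama1, the laminin chain with the narrowest pattern of the 4 ligand genes here by number of classes above 10 CPM, was found in lens-like, Müller glia-like, amacrine-like and pericyte and smooth muscle-like nuclei. It reached 361 CPM in lens-like nuclei (320.2 to 405), from 284 UMIs in 228 nuclei. Müller glia-like nuclei had 128 CPM (111 to 146), amacrine-like nuclei 67.5 CPM (62.8 to 72.4) and pericyte and smooth muscle-like nuclei 25.4 CPM (16.5 to 37.5), and these steps did not overlap. In the other 14 classes the level was at most 8.22 CPM, the value in ganglion cell-like nuclei. There were 13 Lama1 UMIs in 1631 bipolar-like nuclei, 5 in 5768 rod-like nuclei, 1 in 657 RPE-like nuclei and 0 in 528 cone-like nuclei, which, at 3 counts of the total, allows a share of up to 0.568% of cone-like nuclei with a UMI. A Lama1 UMI was present in 57.0% of lens-like, 25.7% of Müller glia-like and 17.5% of amacrine-like nuclei, at median depths of 2658, 2984 and 4403 UMIs, against 0.674% of bipolar-like nuclei at 3174 UMIs. Thinned to 500 UMIs the same shares were 17.8, 6.98, 3.49 and 0.0625%.

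Within classes, Lama1 did not differ between the lens clusters, at 359.8 CPM in the fibre-like cluster 20 (304 to 422) and 362 CPM in cluster 28 (303 to 429). Among the 6 amacrine-like clusters it varied widely. Cluster 24, with 1938 CPM of the glycine transporter Slc6a9, had 197 CPM of Lama1 (173 to 223), and cluster 29, with 1073 CPM of Slc6a9, had 135 CPM (120.0 to 151). The others had 37.3 CPM (cluster 7), 31.3 CPM (cluster 33), 21.6 CPM (cluster 31, with the cholinergic gene Chat) and 1.78 CPM (cluster 38, rich in Gad1). The level in cluster 24 lay above that of Müller glia-like nuclei, by intervals that did not overlap. Müller markers summed to 385 CPM in cluster 24, the least of the 6 clusters, against 14772 CPM in Müller glia-like nuclei.

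**Figure D2:**
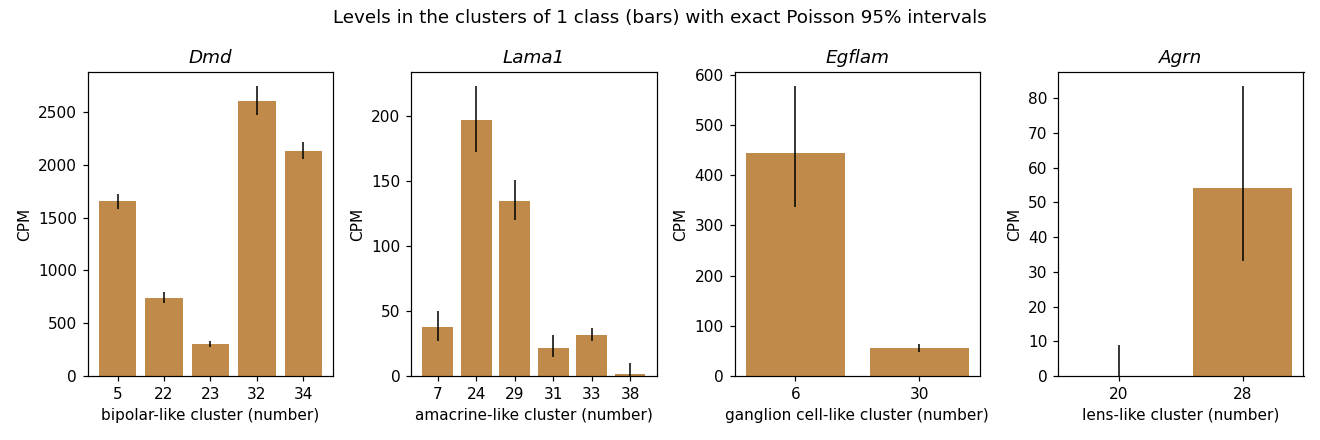
Levels of 4 members in the single clusters of 1 class each: Dmd in bipolar-like, Lama1 in amacrine-like, Egflam in ganglion cell-like and Agrn in lens-like clusters, as CPM (bars, axes from 0, scaled per panel) with exact Poisson 95% intervals. Lama1 is highest in amacrine-like clusters 24 and 29, and Dmd is lowest in bipolar-like cluster 23.

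On the chip, nuclei with a Lama1 UMI were found in every piece of tissue. In the leftmost of 4 pieces of tissue they were 131 amacrine-like, 44 Müller glia-like and 42 lens-like nuclei, in the next 60, 27 and 9, then 128, 41 and 56, and 91, 35 and 23 in the rightmost. The map of these nuclei shows the first 2 kinds along each retinal arc and the lens-like nuclei inside it.

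**Figure D3:**
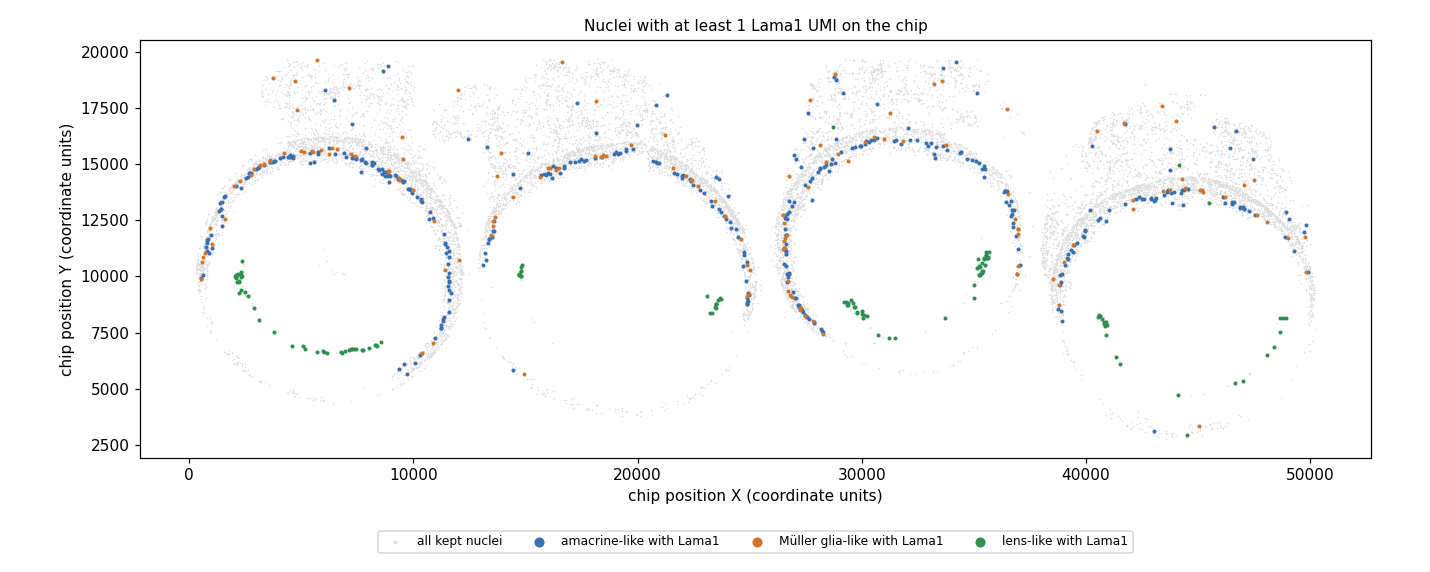
Position on the chip (X and Y in coordinate units whose length is not given) of all kept nuclei (grey) and of amacrine-like (blue), Müller glia-like (orange) and lens-like (green) nuclei with at least 1 Lama1 UMI. The blue and orange points follow the arcs of the 4 pieces and most green points lie inside them; some points of each colour lie off these bands.

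Lamb2, the laminin beta2 chain of vessel, muscle and retinal basement membranes, was highest in pericyte and smooth muscle-like nuclei, at 342 CPM (306 to 380.4). Endothelial-like nuclei had 162 CPM (140.0 to 186) and fibroblast-like nuclei 153 CPM (133 to 174), which overlapped. The next levels were 102 CPM in myelinating glia-like, 75.3 CPM in melanocyte-like, 73.2 CPM in skeletal muscle-like (64.8 to 82.4), 57.3 CPM in Müller glia-like (46.3 to 70.0), 44.5 CPM in lens-like and 42.3 CPM in RPE-like nuclei (35.9 to 49.5), each overlapping the next. All neurons and photoreceptors had 1 to 16 UMIs per class, or at most 2.53 CPM: 0.840 CPM in rods (7 UMIs), 0.851 CPM in ganglion cells (3 UMIs), 1.22 CPM in bipolar cells (7 UMIs), 1.41 CPM in amacrine cells (16 UMIs), 2.07 CPM in cones (4 UMIs) and 2.53 CPM in horizontal cells (1 UMI). In amacrine-like nuclei, where Lama1 was at 67.5 CPM, Lamb2 thus had fewer than the 20 UMIs that a measured gene needs in its highest class. Other laminin chain genes were counted there, among them Lamb1 with 411 UMIs (36.2 CPM) and Lamc1 with 933 UMIs (82.2 CPM). A Lamb2 UMI was seen in 64.3% of pericyte and smooth muscle-like nuclei (median 3367 UMIs) and in 0.121% of rod-like nuclei (median 1063 UMIs), or 17.1% and 0 of 5551 when thinned to 500 UMIs.

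Egflam, which encodes pikachurin, was the ligand gene of the 4 that was highest in photoreceptors. It was at 1133 CPM in rod-like nuclei (1110.4 to 1156) and 912 CPM in cone-like nuclei (869.5 to 955). Next came pericyte and smooth muscle-like nuclei, at 208 CPM (180.0 to 238), and the remaining 15 classes ran from 95.1 CPM in endothelial-like to 19.2 CPM in RPE-like nuclei (14.98 to 24.3). Müller glia-like nuclei had 53.1 CPM (42.6 to 65.4), bipolar-like nuclei, whose dendrites face the photoreceptor terminal, 62.0 CPM (55.7 to 68.8), and skeletal muscle-like nuclei 40.3 CPM (34.2 to 47.3). An Egflam UMI was seen in 67.3% of rod-like nuclei although these were the shallowest, and in 82.0% of cone-like nuclei, against 5.48% of RPE-like nuclei at a median of 2958 UMIs. At 500 UMIs the shares were 41.6% of rod-like, 33.3% of cone-like and 0.649% of RPE-like nuclei.

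The low levels of Egflam outside photoreceptors were set against the rod markers of the same nuclei. Rod-like nuclei had 3.70 Egflam UMIs per 100 rod-marker UMIs (3.63 to 3.78) and cone-like nuclei 4.48 (4.27 to 4.70). RPE-like nuclei had 2.06 (1.61 to 2.62), lens-like 2.87 (1.91 to 4.14), bipolar-like 3.42 (3.07 to 3.80), endothelial-like 3.93 (3.24 to 4.73) and Müller glia-like nuclei 4.35 (3.47 to 5.39), all at, below or overlapping the ratio of rods. The part of rod transcripts in these levels was not tested. Pericyte and smooth muscle-like nuclei had 27.5 (23.5 to 32.2), well above that ratio. Ganglion cell-like (9.46, 8.26 to 10.8), myelinating glia-like (8.31, 6.41 to 10.6) and amacrine-like nuclei (7.78, 7.22 to 8.37) were also above it. Fibroblast-like (6.02, 4.93 to 7.30) and melanocyte-like nuclei (5.71, 4.16 to 7.67) lay above it by less, and skeletal muscle-like nuclei (4.49, 3.79 to 5.28) only just. Within the ganglion cell-like class, cluster 6 had 444.5 CPM of Egflam with 10478 CPM of rod markers, and cluster 30 had 54.7 CPM with 364 CPM.

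Pomgnt1, the glycosyltransferase, was found in every class, from 71.4 down to 11.2 CPM. It was at 71.4 CPM in cone-like (60.0 to 84.4) and 63.3 CPM in rod-like nuclei (58.0 to 69.0), which overlapped. The RPE came next at 41.2 CPM (34.8 to 48.3), below the interval of rods. Bipolar-like nuclei had 37.0 CPM (32.2 to 42.4), amacrine-like 26.1 CPM (23.2 to 29.2), Müller glia-like 24.1 CPM (17.2 to 32.8), ganglion cell-like 19.0 CPM (14.7 to 24.1), skeletal muscle-like 18.3 CPM (14.2 to 23.2) and fibroblast-like nuclei 14.7 CPM (9.10 to 22.5). From the RPE down every class overlapped the next in the order, although the intervals of the RPE and of fibroblast-like nuclei did not overlap. The lowest value, 11.2 CPM in surface epithelium-like nuclei, rested on 3 UMIs. Thinned to 500 UMIs, 3.62% of cone-like and 3.28% of rod-like nuclei had a Pomgnt1 UMI, against 0.665% of skeletal muscle-like nuclei.

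Dmd was at 4254 CPM in rod-like nuclei (4209 to 4298) and 3981 CPM in cone-like nuclei (3892 to 4071). Skeletal muscle-like nuclei came next, at 1745 CPM (1703 to 1788), then bipolar-like nuclei at 1292 CPM (1263 to 1322) and pericyte and smooth muscle-like nuclei at 825 CPM (769 to 884), with no overlap among these 5 classes. Horizontal-like nuclei had 611 CPM (536 to 693), myelinating glia-like 578 CPM (528 to 631), Müller glia-like 400.3 CPM (370.4 to 432) and amacrine-like nuclei 351 CPM (340 to 362). The lowest were microglia and macrophage-like nuclei at 164 CPM and RPE-like nuclei at 143 CPM (131 to 156). At least 1 Dmd UMI was seen in 94.3% of rod-like nuclei and 31.8% of RPE-like nuclei, and at 500 UMIs in 84.8 and 5.84%. Per 100 rod-marker UMIs, Dmd was at 13.9 in rods (13.7 to 14.05), 12.3 in microglia and macrophages (10.4 to 14.6) and 15.3 in the RPE (13.96 to 16.8), so that the intervals of the lowest classes overlapped that of rods. Skeletal muscle-like nuclei had 194 (186 to 202), bipolar-like 71.2 (69.1 to 73.4) and Müller glia-like nuclei 32.8 (30.04 to 35.9). The gene makes several products from its different starts, and the counts do not tell them apart.

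Dmd separated the bipolar-like clusters. Clusters 32 and 34, with 15693 and 4758 CPM of Grik1, a kainate receptor gene of OFF bipolar cells, had 2606 CPM of Dmd (2473 to 2745) and 2135 CPM (2052 to 2220). Cluster 5, with 856 CPM of the ON bipolar receptor gene Grm6, had 1655 CPM (1586 to 1726), and cluster 22, also with Grm6, had 739 CPM (688 to 793). Cluster 23, with 22545 CPM of Prkca and the markers of rod bipolar cells, had 298 CPM (272 to 326). Rod markers in these clusters ran from 917 CPM in cluster 34 to 3003 CPM in cluster 5 and did not follow the order of Dmd. Dag1 was between 52.8 and 71.5 CPM in all 5 clusters. Among amacrine-like clusters Dmd ranged from 58.8 CPM in cluster 38 to 824 CPM in cluster 7, which also had the most rod markers of the 6, 2238 CPM.

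Direct contrasts between pairs of classes were called by the same factor of 2 between the interval bounds. Of the 7 members, 4 were called higher in Müller glia-like than in rod-like nuclei, where the background was 19.9% of 11669 genes, and 2 higher in rods, where it was 10.8%. Dag1 was 3.30-fold higher in Müller glia (2.90 to 3.76), Agrn 14.5-fold (11.5 to 18.5), Lamb2 68.2-fold (31.9 to 174) and Lama1 213-fold (89.9 to 663). Egflam was 21.4-fold (17.3 to 26.7) and Dmd 10.6-fold (9.84 to 11.5) higher in rods, and Pomgnt1, 2.63-fold higher in rods (1.90 to 3.72), missed the call. The members' median difference in log2(CPM + 10), Müller glia minus rods, was 1.59, against -0.15 over all genes tested. Against cones, 3 members were higher in Müller glia-like nuclei (17.6% of genes) and 2 lower (10.6%). They were Agrn at 7.33-fold, Lamb2 at 27.7-fold and Lama1 at least 82.3-fold, the cone level of 0 taken at a floor of 3 counts, and Egflam and Dmd in the other direction. For Lama1 the ratio of the lower bound in Müller glia to the upper bound in cones was 58.3. Against bipolar-like nuclei, Dag1, Lama1 and Lamb2 were higher in Müller glia (background 13.6%) and Dmd was 3.23-fold higher in bipolar cells (9.92%).

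Against the RPE, 3 members were higher in Müller glia-like nuclei, where the background was 15.7%, and 0 in the RPE, where it was 8.59%. Agrn was 8.18-fold higher (6.33 to 10.7), Dmd 2.80-fold (2.497 to 3.15), and Lama1 had 212 UMIs against 1, a ratio of 466 (82.7 to 18477). Without the 5% of highest Scrublet scores, Dmd in Müller glia-like nuclei was at 268 CPM, against 400.3 CPM with them. Whether the Dmd call held in that setting is not given here. Dag1, at 2.23-fold (1.93 to 2.58), missed the call. From RPE to rods, Lamb2 was 50.4-fold higher in the RPE (23.9 to 127), with a background of 18.6%, and Egflam 59.0-fold and Dmd 29.8-fold higher in rods (18.0%). Between cones and rods 0 members were called in either direction, with 6.17% of genes called higher in cones and 1.25% in rods. Dag1 was 1.52-fold higher in cones (1.29 to 1.79) and Egflam 1.24-fold higher in rods (1.18 to 1.31).

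Skeletal muscle-like nuclei were set against Müller glia and fibroblasts. Dmd was 4.36-fold higher in muscle than in Müller glia (4.02 to 4.73; background 9.55%), and Agrn was 12.4-fold (9.17 to 17.0) and Lama1 96.3-fold (40.6 to 299.8) higher in Müller glia (30.8%). Dag1 differed by 1.20-fold between these classes (1.07 to 1.35) and was not called. Against fibroblasts, Dmd at 5.22-fold (4.75 to 5.74) was the single member called higher in muscle (8.03%), and 0 were called higher in fibroblasts (29.0%). Here Lamb2 and Agrn were 2.08-fold (1.74 to 2.497) and 3.35-fold (2.29 to 4.91) higher in fibroblasts on their ratios and missed the call. Between these classes 3 members were called with at least 500 genes per nucleus, against 1 at resolution 0.5. There were 2 at resolution 2, with list genes kept for clustering or at a naming cut-off of 0.8. Without the 5% of highest Scrublet scores (doublet scores) there were also 2. The share of all genes called was not worked out for these settings.

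The 4 pieces of tissue on the chip, numbered from left to right, held 4465, 3363, 4202 and 4837 nuclei. The labels name 1 section and nothing that tells the pieces apart, so they are not replicates. Egflam in rod-like nuclei was at 1135, 1153, 1154 and 1104 CPM in pieces 1 to 4, with overlapping intervals. Dmd in rods was at 4061, 4013, 4172 and 4607 CPM, and piece 4 (4526 to 4689) lay above the other pieces. In cones the same piece was highest, at 4509 CPM against 3740.0 to 3942 CPM. Dag1 in Müller glia-like nuclei was at 186, 277, 246 and 246 CPM and Lama1 at 114, 149, 115 and 151 CPM, and the lowest and highest pieces overlapped for both. Lama1 in lens-like nuclei was at 466, 373, 319 and 315 CPM, from 98, 17, 132 and 37 UMIs.

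The highest and lowest pieces were compared for members with at least 100 UMIs in a class with at least 20 nuclei per piece. Lens-like nuclei, with 19 in piece 2, were left out by this. Among the rest, the pieces differed most for Dmd in adipocyte-like nuclei. It was at 819 CPM in piece 1 (from 30 nuclei) and 252 CPM in piece 2, or 3.24-fold. Egflam differed 2.93-fold in fibroblast-like and 2.85-fold in skeletal muscle-like nuclei. The intervals of the highest and lowest pieces did not overlap for these 3. Dmd in skeletal muscle-like nuclei, which rested on more UMIs, was at 1574, 1473 and 1396 CPM in pieces 1 to 3 and 3289 CPM in piece 4 (3143 to 3439). Dag1 was at 268, 275, 254 and 346 CPM and Lamb2 at 78.0, 66.7, 60.9 and 108 CPM, also highest in piece 4. Muscle-like nuclei of piece 4 were the shallowest, with a median of 1970 UMIs against 4202, 2899 and 7462 in pieces 1 to 3. The 12 muscle markers summed to 97467 CPM in piece 4 against 97386, 93499 and 76903 CPM, and rod markers to 1139 CPM against 878, 1147 and 556 CPM. The part of depth in the Dmd difference was not tested. In myelinating glia-like nuclei Dag1 was at 569, 731, 560 and 389 CPM, and the nuclei led by Prx and Pmp22 made up 20 of 34, 94 of 125, 24 of 45 and 38 of 56.

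**Figure D4:**
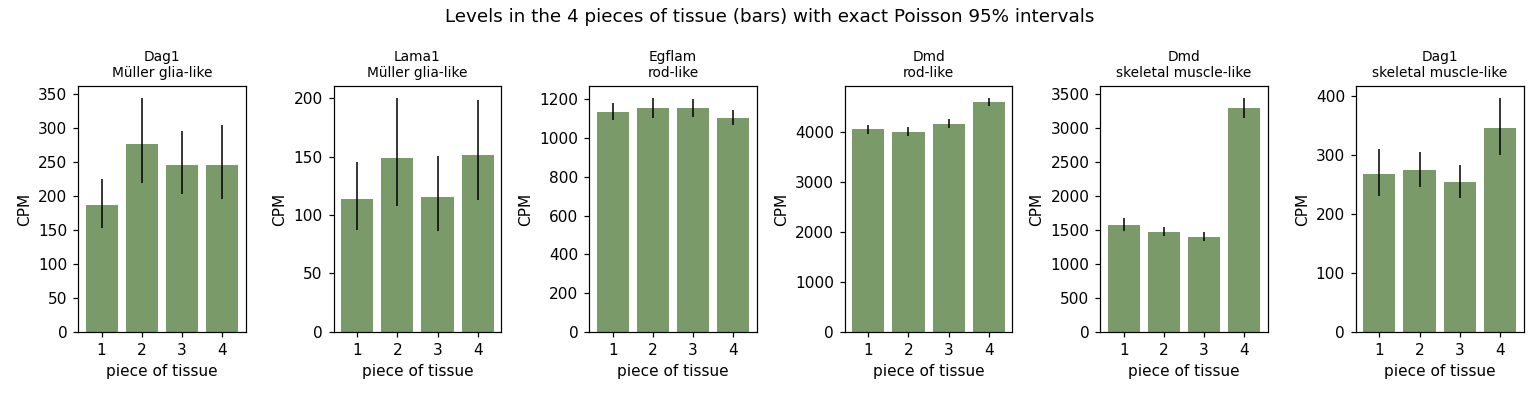
Levels of Dag1, Lama1, Egflam and Dmd in named classes in each of the 4 pieces of tissue (horizontal axis, numbered from left to right on the chip), as CPM (bars, axes from 0, scaled per panel) with exact Poisson 95% intervals. Egflam in rod-like nuclei is level, and Dmd in skeletal muscle-like nuclei stands at 3289 CPM in piece 4 against 1396 to 1574 CPM in the others.

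Other genes of the pathway were taken from lists. Of 19 genes of the dystrophin-glycoprotein complex, all measured, 2 were class-high (10.5%), against 14.1% of all measured genes. The median ratio of the highest class's lower bound to the next upper bound was 1.39, against 0.89 over all measured genes. The 2 class-high genes were Drp2 in myelinating glia-like nuclei, at 600.0 CPM (549 to 654), and Sgca, a muscle sarcoglycan, in skeletal muscle-like nuclei, at 59.7 CPM (52.2 to 68.0). Muscle-like nuclei were the highest class for 5 genes: Sgca, Sgcb, Sspn, Nos1 and Cav3, where 4.65% of all measured genes peaked in that class. For Sgcb and Sspn the next class, ganglion cell-like and fibroblast-like nuclei respectively, overlapped muscle. Rod- or cone-like nuclei were highest for 4, the dystrophin gene itself, the dystrobrevin gene Dtnb and the syntrophin genes Sntb2 and Sntg2, and 19.6% of all measured genes peaked in rods or cones. Müller glia-like nuclei were highest for the dystrobrevin gene Dtna, at 811 CPM, and the syntrophin gene Sntb1, at 1366 CPM, which had 2.64 and 3.84 CPM in rods. The syntrophin gene Sntg1 was highest in amacrine-like nuclei, at 757 CPM.

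Utrn was arranged unlike Dmd. It was at 2649 CPM in horizontal-like nuclei (2491 to 2814), 1933 CPM in myelinating glia-like, 1773 CPM in pericyte and smooth muscle-like, 1519 CPM in adipocyte-like and 1374 CPM in endothelial-like nuclei. In the photoreceptors it was at 6.96 CPM in rods and 10.9 CPM in cones, and at 34.6 CPM in bipolar cells, which were 3 of the 4 classes with the most Dmd. The correlation of log2(CPM + 10) between Dmd and Utrn over the 18 classes was -0.60, as a description of classes that share 1 library. The channel genes that the complex anchors, Aqp4 and Kcnj10, were both class-high in Müller glia-like nuclei, at 622 CPM (585 to 661) and 365 CPM (336 to 395). Of all measured genes, 14.1% were class-high in any class.

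Of 9 laminin chain genes measured among 11 listed, 2 were class-high, against 14.1% of all measured genes. They were Lama1 in the lens and Lamc3 in pericyte and smooth muscle-like nuclei at 345 CPM (309 to 384). The median bound ratio of the 9 was 1.41. Lama2, the main muscle laminin chain, was highest in fibroblast-like nuclei at 870.4 CPM, with 57.0 CPM in skeletal muscle-like nuclei. Lamc1, which encodes the gamma chain shared by most laminins, was at 697 CPM in fibroblast-like and 91.6 CPM in Müller glia-like nuclei. Lama4 and Lamb1 were highest in adipocyte-like nuclei, at 815 and 378 CPM. Lamb1 had 0.603 CPM in Müller glia-like nuclei, where Lamb2 was at 57.3 CPM. Lama1 and Lamb2 shared Müller glia-like, lens-like and pericyte and smooth muscle-like nuclei as classes above 10 CPM.

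Other ligands of dystroglycan gave 3 class-high genes of 9, against 14.1% of all measured genes, with a median bound ratio of 1.34. Slit1, a guidance ligand, was at 1146 CPM in horizontal-like nuclei (1043 to 1257), and Slit2 and the neurexin Nrxn3 were highest in bipolar-like nuclei, at 1819 CPM (1784 to 1854) and 15946 CPM (15842 to 16049). Nrxn2, a neurexin of the presynaptic membrane, was highest in amacrine-like nuclei, at 723 CPM. Hspg2, which encodes perlecan, was highest in endothelial-like nuclei at 1868 CPM, and Slit3 in lens-like nuclei at 3084 CPM. Of the 9, 0 were highest in rods or cones, the classes of Egflam, against 19.6% of all measured genes.

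Of 17 glycosylation genes found and reported, 8 reached 20 UMIs in their highest class. Of the 8, 0 were class-high, against 14.1% of all measured genes, and their median bound ratio was 0.79. Besides Pomgnt1, Pomt2 and Dpm1 were highest in rod- or cone-like nuclei, 3 of 8 in all against 19.6% of measured genes. Pomt2, part of the enzyme pair that adds the first mannose, was at 122 CPM in cones (107 to 138) and 77.0 CPM in rods (71.2 to 83.2). Skeletal muscle-like nuclei had 11.4 CPM of Pomt2. Dpm1, a subunit of the synthase that makes the mannose donor, was at 64.5 CPM in rods (59.2 to 70.2). Melanocyte-like nuclei, its next class, overlapped at 61.2 CPM (43.5 to 83.6). Mgat5b was highest in amacrine-like nuclei, at 121 CPM.

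Of 11 other basement membrane genes, 3 were class-high (14.1% of all measured genes were), the collagen IV genes Col4a1 at 3985 CPM (3847 to 4127), Col4a2 at 2688 CPM and Col4a5 at 513 CPM, all in lens-like nuclei, and the median bound ratio was 1.23. Lens-like nuclei were the highest class for 7 of the 11, among them Col4a3, Col4a4 and the nidogen gene Nid1 at 1064, 821 and 2047 CPM, and 4.09% of all measured genes peaked in the lens. Lama1 had its highest class in common with these 7. The plot of list genes by class shows the complex, ligand, laminin and glycosylation genes together.

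**Figure D5:**
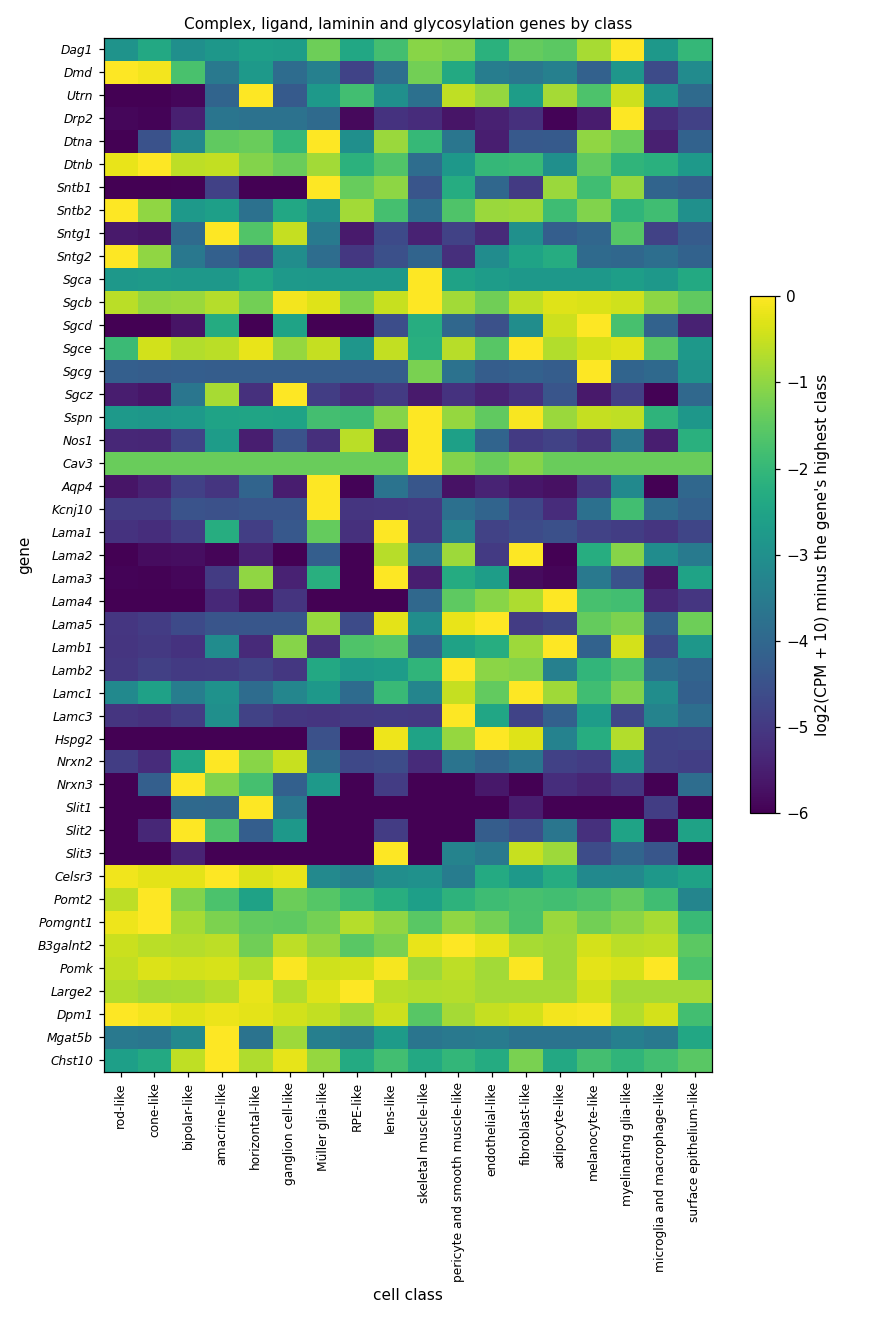
Level of each measured and reported gene of the complex, channel, laminin, ligand and glycosylation lists (rows) in the 18 classes (columns), as log2(CPM + 10) minus the gene's value in its highest class; yellow (0) is the highest class and dark blue is 6 or more log2 units below it. Dmd is brightest in rod- and cone-like columns, where Utrn is darkest, and Drp2 is brightest in the myelinating glia-like column.

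For each member, the genes with the most similar levels over the 18 classes were listed by Pearson correlation of log2(CPM + 10), among 13225 genes with at least 200 UMIs. The classes share 1 library and its free RNA, so these values are descriptions. Dag1 was most like Fxyd1 (0.92), Cyp2j9 (0.85) and Matn2 (0.85), all highest in myelinating glia-like nuclei. Lama1 was most like Adamts18 (0.92), Pappa (0.89) and Ass1 (0.88), all highest in lens-like nuclei. Lamb2 was most like Serpinh1, a collagen chaperone gene (0.93), Ephb4 (0.93) and Id3 (0.92). Egflam was most like the sulfate transporter gene Slc26a2 (0.93), Doc2b (0.93) and Pla2r1 (0.93), and Pomgnt1 like Tnks2 (0.89), Ptpn2 (0.86) and Zfp787 (0.86), all highest in rods or cones. Dmd was most like Bzw2 (0.90), Gm40477 (0.87) and Inka2 (0.86), each highest in cones, and Agrn like Btbd3 (0.82), Dip2a (0.80) and Tbx2 (0.79). Among the members, the highest correlations were 0.75 between Dag1 and Lamb2 and 0.74 between Egflam and Dmd. Dag1 stood at 0.37 with Agrn, 0.10 with Lama1 and -0.13 with Egflam.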

How the data were processed

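Nuclear RNA and chip positions were measured in 2 libraries of 1 section, T1. The deposited matrix holds raw UMI counts per gene and barcode, as whole numbers with unequal totals, and the deposited position table holds coordinates in other, unstated units. Per the submitters' processing notes, fastp, STAR, Seurat 4.1.1 and mm10 were used. Not given in the sources used here: roles, strand setting, intron counting and cell calling.

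Members and lists were chosen with earlier results of these data known. Some list and marker genes took part in the clustering and naming but are not reported here, and list counts leave them out. Computation used python 3.11.15, scanpy 1.11.5, igraph 0.11.9 and scipy 1.17.1. Nuclei had at least 200 genes and under 10% mitochondrial UMIs. Scrublet marked 0 nuclei (up to 0.0178%) and so had not worked; doublets remain. Leiden clusters (resolution 1) used 2000 variable genes without list genes, 30 components and 15 neighbours. Clusters were named where at least 3 markers led, the score reached 0.7 and the next score was at most 0.75 of it, cut-offs set after seeing the data; 3 clusters (6.94% of nuclei) stayed unnamed. Measured genes had at least 20 UMIs in their highest class. The class-high rule is no test, and 1 library allows no test between samples. Named genes are members, the 3 genes most like each, up to 6 class-high and 4 abundant genes per list, and genes that small counts needed; single clusters and pieces were singled out after their values were seen. Alternatives changed filters, resolution, list genes, depth, doublet scores, totals, the fold rule, photoreceptor merging and naming cut-offs, or left out a piece.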

Additional observations from a re-analysis of the deposited data

How the results depend on the processing

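No paired analysis was possible because neither T1 sample has a group. Of 248 alternative values for 27 results under 18 settings, 201 stayed within the main interval or within 1.5 times the main count and 47 moved. For Dag1 in myelinating glia-like nuclei (593 CPM) the values were 849 with at least 500 genes, 845 at resolution 2, 844 with list genes kept for clustering, 704 thinned to 500 UMIs, 680.3 with totals without mitochondrial genes and Gm42418, and 788 as a mean over nuclei. For Dmd in rod-like nuclei (4254 CPM) they were, in the same order, 4147, 4315, 4198, 4395, 4357 and 4341, and 4324 at resolution 0.5. Egflam in rods (1133 CPM) was 1109.6 with at least 500 genes and 1161 with the reduced totals, and Lamb2 in pericyte and smooth muscle-like nuclei (342 CPM) was 402 with the latter. Thinned, Agrn in melanocyte-like nuclei was 189.7 and Lama1 in lens-like nuclei 458 CPM; the latter was 424 as a mean over nuclei. Shares thinned to 500 UMIs were 26.9% (Dag1), 9.05% (Agrn), 17.8% (Lama1), 17.1% (Lamb2), 41.6% (Egflam), 3.62% (Pomgnt1) and 84.8% (Dmd). Class-high members numbered 1 (Lama1), but 3 at resolution 0.5 and with rods and cones merged (Lama1, Egflam and Dmd in both). They numbered 2 at resolution 2 (Dag1 and Lama1) and with the 1.5 times rule (Lama1 and Lamb2). With the 3 times rule and thinned they numbered 0. The share of all genes called was worked out only for the main and merged settings. The other counts, and the pair counts that follow, therefore have no background beside them. Members called between skeletal muscle and fibroblasts numbered 1, but 3 with at least 500 genes and 2 at resolution 2, with list genes kept, without the 5% of highest Scrublet scores and at a naming cut-off of 0.8. Between Müller glia and bipolar cells 2 were called with the 3 times rule. Dmd in Müller glia-like nuclei was 268 CPM without the highest Scrublet scores. Except where the construction shows it, the cause was not tested.

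Leaving out each piece in turn gave 500.2 to 650.5 CPM for Dag1 in myelinating glia-like nuclei, 218 to 253 for Agrn in melanocyte-like, 323 to 407 for Lama1 in lens-like, 331 to 362 for Lamb2 in pericyte and smooth muscle-like, 1127 to 1147 for Egflam in rod-like, 64.6 to 73.8 for Pomgnt1 in cone-like and 4086 to 4317 for Dmd in rod-like nuclei. Few UMIs limit the precision of Lama1 in photoreceptors, of Lamb2 in neurons and of Pomgnt1 in surface epithelium-like nuclei.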

Other observations

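Values of the 3 unnamed clusters belong to no class. Cluster 36, with 319 nuclei, a median of 8091 UMIs and both bipolar and Müller genes among its leading genes, had 46.9 CPM of Lama1, 120.4 CPM of Agrn, 112 CPM of Dag1 and 785 CPM of Dmd. Cluster 13, with 119 nuclei led by Rbp3 and Gnat1, had 944 CPM of Egflam, 3479 CPM of Dmd, 48.9 CPM of Pomgnt1 and 0 UMIs of Lamb2. Cluster 3, with 733 nuclei led by Hs3st3a1, Ccn2 and Fbn2, had 188 CPM of Dag1, 164 CPM of Lamb2, 120.1 CPM of Egflam and 8.11 CPM of Lama1.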
